A study of Arabidopsis thaliana with 8 samples.

Results

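The 110 Arabidopsis thaliana genes described here were lower in abscisic acid (ABA) treated wild-type root tips than in untreated ones, while their ratios of the mutant bin2-1 to untreated wild type and of bzr1-D/bin2-1 to bin2-1 each lay inside a window around 1. They were chosen by the deposited group values from 33557 genes. The ratio of ABA-treated to untreated wild type, with 0.1 FPKM added to each value, was at most 1/1.8. The window for the mutant ratios was 1.5-fold on either side of 1, and at least 1 of the 6 group values reached 5 FPKM. FPKM are fragments scaled to transcript length and library size. All 3 comparisons chose the genes, so their ratios and q-values below are a description and support nothing beyond themselves.

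The study has 8 RNA-seq libraries in 4 groups of 2: untreated wild type (Col-ABA), wild type given 100 µM ABA for 3 h (Col+ABA), bin2-1, and the double mutant bzr1-D/bin2-1. All are in the Columbia background and come from the last 1 cm of roots of 7-day-old seedlings. The labels do not say whether the mutant roots received ABA, and the second library of each group is called a repeat without being described as separate plants. The tables hold 1 value per group from the authors, so no spread between libraries can be given, and the depth of the libraries is unknown. Fewer cells of a type and less RNA per cell cannot be told apart in these whole root tips. Below, a Col-ABA value beside Col+ABA is from the ABA table, a bin2-1 value from the bin2-1 table unless another is named, and a bzr1-D/bin2-1 value from the bzr1-D table. The tables are scaled apart by factors of 1.07 and 1.04, so small gaps between values of different tables say nothing. The 4 green tissue markers summed to 3.61 FPKM in Col-ABA and 3.04 in Col+ABA, beside 157 FPKM in Col-ABA for CASP1, a gene of the root endodermis.

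ABA is the hormone by which plants respond to drought and salt. Its receptors block a group of phosphatases, which frees SnRK2 kinases to act on transcription factors, and many genes of growth and nutrient uptake are known to be repressed as well as many stress genes induced. BIN2 is a kinase that holds back brassinosteroid signalling by phosphorylating BZR1, and is also known to act in ABA signalling. The bin2-1 allele is a gain of function that leaves plants largely insensitive to brassinosteroid, and bzr1-D is a dominant allele whose protein is stabilised.

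At the limits used, 663 of the 15705 genes with at least 5 FPKM in any group were lower with ABA, which is 4.22%. Of these, 16.6% are the 110 genes. Among the other 553, the bin2-1 ratio alone was outside the window for 272, the bzr1-D ratio alone for 58 and both for 223. Across all genes at this level, 54.1% had both mutant ratios inside the window. The same limits turned to genes that were higher with ABA give 424 genes. Col-ABA is the denominator of both the ABA ratio and the bin2-1 ratio, and bin2-1 stands in both mutant ratios, so the ratios share values.

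The log2 ratio with ABA ran from -3.49 to -0.85 over the 110 genes, with a median of -1.16 and quartiles of -1.53 and -0.94. At least 2-fold lower values were found for 71 genes and at least 4-fold lower values for 8. By the q-values of the authors' deposited table, 103 of the 110 were lower at q under 0.05, beside 9.51% of all tested genes. At q under 0.01, 100 were lower in the authors' deposited table, beside 6.56% of all tested genes. For 87 of them q was 0.000385, the smallest q in that table of the authors. The 7 genes that did not pass are AT3G20900, AT1G11055, AT3G53235, AT5G15581, AT5G53320, GUS1 and AT5G43910, and each of them overlaps another annotated gene. All 79 genes with no annotated overlap passed in the authors' deposited table.

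Some markers of root cell types also differed between the groups. Of 21 such markers, 18 were found in the tables and the root cap markers SMB, BRN1 and BRN2 were not. The authors' deposited table has 4 of the 18 higher and 4 lower with ABA at q under 0.05, beside 15.1% and 9.51% of all tested genes. RHD2, an oxidase of root hair growth, fell from 21.4 to 9.44 FPKM with ABA, GL2, of the non-hair epidermis, from 17.1 to 10.7, SCR, of the endodermis, from 20.8 to 14.5, and APL, of the phloem, from 16.3 to 11.6. SUC2, also of the phloem, rose from 33.9 to 69.7 FPKM with ABA, CASP1 from 157 to 209, VND7, of the xylem, from 1.21 to 2.497, and WOX5, of the quiescent centre, from 1.82 to 4.47. The summed FPKM in Col-ABA and Col+ABA were 91.3 and 67.7 for 4 root hair markers, 262 and 321 for 4 of the endodermis, 78.3 and 95.9 for 3 of the xylem, 50.2 and 81.3 for 2 of the phloem, and 13.6 and 17.02 for 4 of the quiescent centre and meristem. In bin2-1 5 of the 18 were higher and 7 lower in the authors' deposited table, beside 25.4% and 25.6% of all tested genes. With bzr1-D 8 were higher and 2 lower, beside 11.9% and 12.8%. The marker counts were not tested against these shares. What part cell types had in the ratios of the 110 genes was not tested.

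In bin2-1 the log2 ratio to Col-ABA ran from -0.58 to 0.56 with a median of -0.15, and 71 of the 110 genes were below Col-ABA. By the authors' deposited table, 24 were lower and 9 were higher at q under 0.05, beside 25.6% and 25.4% of all tested genes, or 29.0% and 26.2% of those with at least 5 FPKM in any group. At q under 0.01, 15 were lower and 4 higher in the authors' deposited table, beside 20.2% and 19.9%. With bzr1-D added, the log2 ratio to bin2-1 ran from -0.54 to 0.53 with a median of -0.03. The authors' deposited table has 9 of the genes lower and 10 higher there, beside 12.8% and 11.9% of all tested genes, or 13.7% and 12.7% of those with at least 5 FPKM in any group. At q under 0.01, 3 were lower and 4 higher in the authors' deposited table, beside 8.83% and 8.36%. In total 45 genes passed in at least 1 mutant comparison of the authors' deposited tables and 7 of them in both, beside 58.5% and 17.2% of the genes tested in all 3 tables. Another count is of genes lower with ABA that passed in neither mutant comparison, which were 58 of the 110, beside 1.83%. The rule used all 3 comparisons, so nothing is read from these shares.

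**Figure D1:**
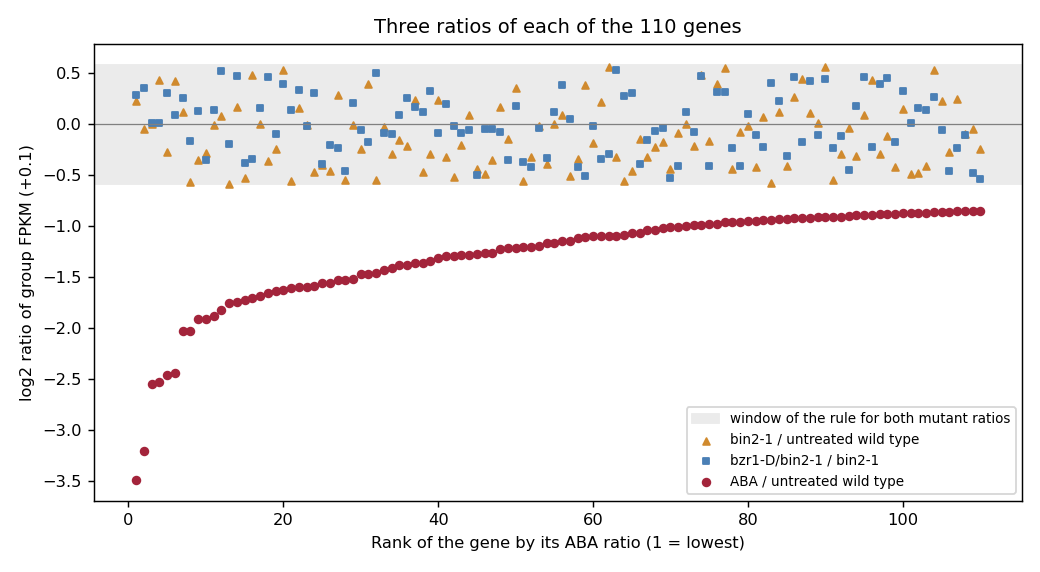
The log2 ratios of each of the 110 genes (vertical axis, FPKM with 0.1 added), ordered by the ABA ratio (horizontal axis), with ABA as circles, bin2-1 as triangles, bzr1-D/bin2-1 as squares and the window of the rule in grey. The circles run from -3.49 to -0.85, and the triangles and squares lie in the window because the rule put them there.

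MYB28, a MYB factor that switches on the synthesis of aliphatic glucosinolates from methionine, had the lowest ABA ratio. Its 250 bases before the annotated start are shown because it leads the 110 genes. They lie at chr5:24691188-24691437 on the minus strand of TAIR10.1, read 5′ to 3′ along the gene, and the capitals mark ACGTG, the core of the element bound by ABA-responsive bZIP factors.
MYB28: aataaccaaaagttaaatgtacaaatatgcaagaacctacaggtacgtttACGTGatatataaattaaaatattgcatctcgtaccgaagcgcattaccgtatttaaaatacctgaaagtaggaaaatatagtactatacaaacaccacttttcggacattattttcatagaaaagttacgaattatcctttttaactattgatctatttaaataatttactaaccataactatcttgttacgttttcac
MYB28 stood at 19.0 FPKM in Col-ABA and 1.597 in Col+ABA. In the bin2-1 table it stood at 20.3 FPKM in Col-ABA and 23.7 in bin2-1, and in the bzr1-D table at 24.7 in bin2-1 and 30.2 in bzr1-D/bin2-1. Col+ABA was thus the one low group, 11.3-fold below Col-ABA, and the double mutant the highest. The authors' deposited tables give q = 0.000385 with ABA, 0.211 in bin2-1 and 0.148 with bzr1-D.

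MAM1 and IMS2, also known as MAM3, lie next to each other on chromosome 5 and encode the synthases that lengthen the methionine side chain in glucosinolate synthesis. The 250 bases before the start of MAM1 are shown as those of a gene in the pathway that MYB28 controls. They lie on the plus strand of TAIR10.1 at chr5:7702791-7703040, and the capitals mark the E-box form CANNTG, while ACGTG was not found.
MAM1: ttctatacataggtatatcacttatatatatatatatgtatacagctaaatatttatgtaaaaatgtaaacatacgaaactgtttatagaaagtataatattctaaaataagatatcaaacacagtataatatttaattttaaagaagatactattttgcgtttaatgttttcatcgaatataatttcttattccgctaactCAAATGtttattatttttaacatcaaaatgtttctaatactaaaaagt
MAM1 stood at 113 FPKM in Col-ABA and 57.0 in Col+ABA, at 107 in bin2-1 in the bin2-1 table and at 84.3 in bzr1-D/bin2-1. IMS2 stood at 226 FPKM in Col-ABA and 110.001 in Col+ABA, at 192 in bin2-1 in the bin2-1 table and at 179.9 in bzr1-D/bin2-1. Both were about as much lower with ABA, at 1.97-fold and 2.05-fold, and Col+ABA was their lowest group. For MAM1 the authors' deposited tables give q = 0.0157 with bzr1-D, and for IMS2 q = 0.0453 in bin2-1, both with lower values in the mutant. HMT3, a methyltransferase that makes methionine from homocysteine, stood at 10.6 FPKM in Col-ABA and 5.75 in Col+ABA, with bin2-1 at 8.04 and bzr1-D/bin2-1 at 8.48 in their own tables, and q = 0.0103 in bin2-1 in the authors' deposited table.

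A list of 24 genes of the aliphatic glucosinolate pathway, drawn up after MYB28 was seen, holds 21 beside MYB28, MAM1 and IMS2. By the q-values of the authors' deposited tables, 2 of the 21 rose and 1 fell with ABA of 18 tested, while 15.1% of all tested genes were higher and 9.51% lower. In bin2-1 15 rose and 0 fell of 19 tested, beside 25.4% and 25.6% of all tested genes in the authors' deposited table. The median log2 ratio was 0.02 over the 18 tested with ABA and 1.595 over the 19 tested in bin2-1, beside 0.01 and -0.0027 over all tested genes. CYP79F2, which converts the lengthened amino acids, stood at 14.4 FPKM in Col-ABA and 12.1 in Col+ABA, and at 15.3 in Col-ABA and 93.7 in bin2-1 in the bin2-1 table. SOT17, a sulfotransferase of the last core step, stood at 7.27 and 6.88 FPKM in the ABA table, and at 7.75 and 49.8 in the bin2-1 table. IPMI1, an isomerase subunit that works after MAM1 in chain elongation, stood at 17.9 and 94.5 FPKM in the bin2-1 table. MYB28, MAM1 and IMS2 had the lowest ABA ratios of the pathway's genes above 5 FPKM, at bin2-1 ratios of 1.17, 0.895 and 0.798. The rule chose these genes for a low ABA ratio and a bin2-1 ratio near 1. Nothing is therefore read from their contrast with the 15 other pathway genes that rose in bin2-1. The related factors MYB29 and MYB76 are listed at 0 in all groups.

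**Figure D2:**
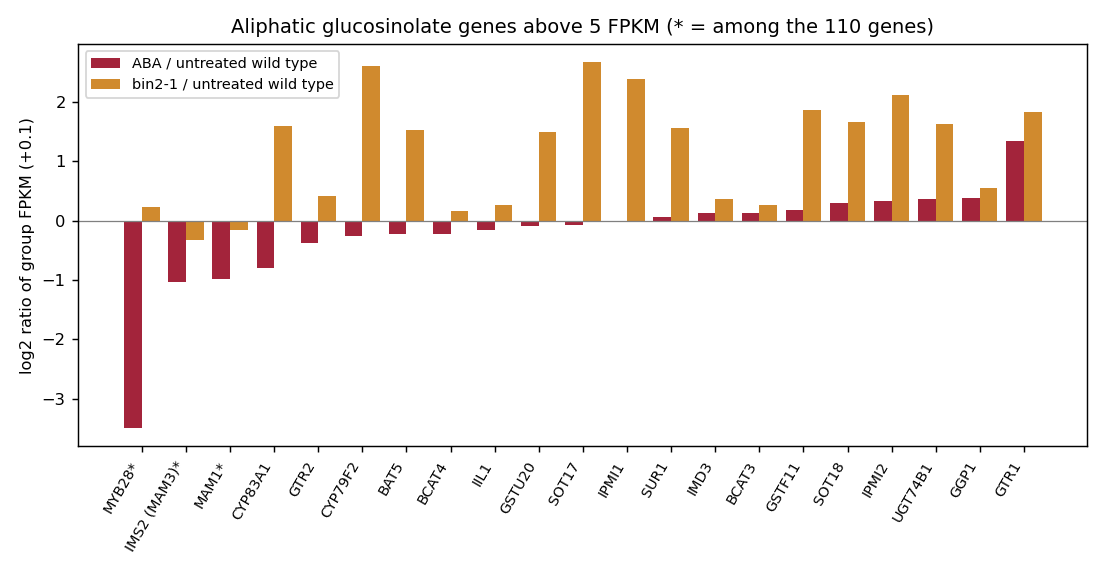
The log2 ratios (vertical axis, FPKM with 0.1 added) of aliphatic glucosinolate genes above 5 FPKM in any group, ordered by the ABA ratio, for ABA against untreated wild type and bin2-1 against untreated wild type. MYB28, IMS2 and MAM1, marked with an asterisk, have the lowest ABA ratios, at -3.49, -1.04 and -0.98. The rule chose these marked genes for a low ABA ratio and a bin2-1 ratio near 1.

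The 15 transcription factors among the 110 genes had a median log2 ABA ratio of -1.38. All 15 were past q 0.05 with ABA in the authors' deposited table, beside 9.51% of all tested genes lower with ABA. In a mutant comparison 7 of them also passed, beside 58.5% in either mutant comparison of the genes tested in all tables. The rule chose these factors by the same comparisons, so nothing is read from the counts. ORA59, an AP2/ERF factor that joins jasmonate and ethylene signals in defence gene control, had the second-lowest ratio of the group. Its 250 bases before the start are shown because its mutant ratios were the closest to 1 among the leading genes. They lie at chr1:1882657-1882906 on the plus strand of TAIR10.1, and the capitals mark GCCGCC, the box that ERF factors bind, and CACGTG, the G-box, which holds ACGTG on both strands.
ORA59: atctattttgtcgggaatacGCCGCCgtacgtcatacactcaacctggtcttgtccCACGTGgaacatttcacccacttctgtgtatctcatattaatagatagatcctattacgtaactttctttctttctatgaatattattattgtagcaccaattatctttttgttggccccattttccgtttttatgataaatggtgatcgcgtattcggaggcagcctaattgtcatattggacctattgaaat
ORA59 stood at 11.5 FPKM in Col-ABA and 1.88 in Col+ABA, which is 5.85-fold lower. It stood at 12.3 FPKM in Col-ABA and 12.2 in bin2-1 in the bin2-1 table, and at 12.8 in bin2-1 and 12.9 in bzr1-D/bin2-1 in the bzr1-D table. The box GCCGCC begins 230 bases and the G-box 194 bases before the start.

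Further factors of jasmonate and ethylene responses followed. MYC4, a bHLH activator of jasmonate responses and of glucosinolate genes, stood at 8.00 FPKM in Col-ABA and 2.46 in Col+ABA, with bin2-1 at 6.64 and bzr1-D/bin2-1 at 9.59. ERF1, an activator of ethylene and jasmonate responses, stood at 6.11 FPKM in Col-ABA and 2.79 in Col+ABA, with bin2-1 at 8.55 and bzr1-D/bin2-1 at 6.23. AT5G51190, also named ERF105, stood at 111 FPKM in Col-ABA and 55.4 in Col+ABA, with bin2-1 at 87.5 and bzr1-D/bin2-1 at 63.1. ERF105 thus approached its ABA-treated level in the double mutant, at a product of the mutant ratios of 0.511, whereas MYC4 and ERF1 were back near Col-ABA, at 1.08 and 0.919.

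On the jasmonate list, of which MYC4 is the only one of the 110 genes, 9 genes rose and 4 fell with ABA of 24 tested in the authors' deposited table, at a median log2 ratio of 0.19. All counts of list genes with ABA, here and below, stand beside 15.1% of all tested genes higher and 9.51% lower, at a median of 0.01, and the counts of no list were tested against these shares. The counts and medians include any of the 110 genes on a list, which the rule chose as lower with ABA. The repressors JAZ7 and JAZ12 rose, from 4.32 to 32.8 and from 57.7 to 194 FPKM, while JAZ8 fell from 20.5 to 5.40. On the ethylene list as matched, of which ERF1 is the only one of the 110, 3 rose and 5 fell of 19 tested, at a median of -0.11. The symbol ACO3 on that list was matched to AT2G05710, an aconitase and not an ethylene gene, at 222 FPKM in Col-ABA and 232 in Col+ABA. AT1G12010, the ethylene synthesis oxidase also named ACO3, is among the 110 but is missing from that count and median. Of 18 genes annotated as ERF subfamily B-3, a list made after the values were seen, ORA59, ERF1 and ERF105 are among the 110. With ABA 1 of the list rose and 8 fell of 16 tested, at a median of -0.73. ORA59, ERF1 and ERF105 are inside the 8, and the rule chose them as lower with ABA. Nothing about the family is read from this count. ERF2 is a relative outside the 110: it fell from 48.4 to 17.5 FPKM with ABA, and its ratio with bzr1-D was 0.43.

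TINY, written tny in the annotation and a DREB-type AP2 factor, stood at 8.54 FPKM in Col-ABA and 1.46 in Col+ABA, with 7.498 in bin2-1 and 9.71 in bzr1-D/bin2-1. WOX11, a homeobox factor of the first steps of new root formation, stood at 16.0 FPKM in Col-ABA and 5.37 in Col+ABA, with 13.0 in bin2-1 and 10.3 in bzr1-D/bin2-1. NUC, or NUTCRACKER, a zinc finger factor of the ground tissue, stood at 20.3 FPKM in Col-ABA and 8.42 in Col+ABA, with 17.0 in bin2-1 and 17.1 in bzr1-D/bin2-1. Each had its lowest value with ABA, and WOX11 its next lowest in the double mutant. On the stem cell niche and patterning list 3 genes rose and 7 fell with ABA of 26 tested in the authors' deposited table, at a median log2 ratio of -0.12. WRKY65 had the highest level of the factors, at 143 FPKM in Col-ABA and 55.0 in Col+ABA, with 131 in bin2-1 and 163.5 in bzr1-D/bin2-1. The other factors are the bZIP gene AT1G58110, the MYB factor RAX2, LSH6, the bHLH gene AT2G42300, AT2G42660 and AT4G22770, at 1.81- to 3.04-fold lower with ABA.

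**Figure D3:**
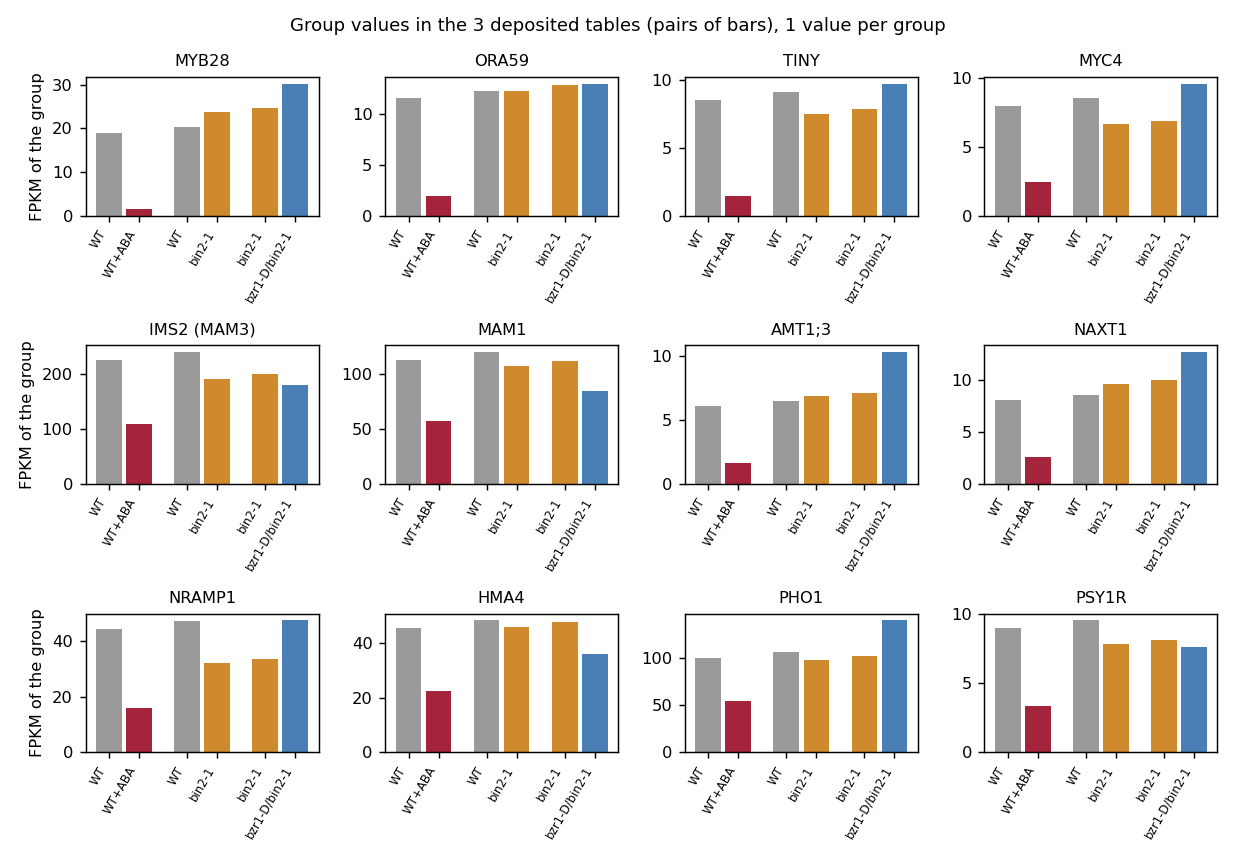
Group FPKM (vertical axes, from 0) of 12 genes in the 3 tables, each table as a pair of bars: wild type without and with ABA, wild type and bin2-1, and bin2-1 and bzr1-D/bin2-1. Col+ABA is the lowest bar in every panel, from 1.46 FPKM for TINY to 110.001 for IMS2.

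Transporters formed a group of 12 genes with a median log2 ABA ratio of -1.37. All 12 were past q 0.05 with ABA in the authors' deposited table, beside 9.51% of all tested genes lower with ABA. In a mutant comparison 7 of them also passed, beside 58.5% in either mutant comparison of the genes tested in all tables. Nothing is read from these counts, because the rule chose the transporters by the same comparisons. AMT1;3, a root ammonium uptake transporter, stood at 6.06 FPKM in Col-ABA and 1.63 in Col+ABA, with 6.82 in bin2-1 and 10.3 in bzr1-D/bin2-1. NAXT1, a nitrate efflux transporter of the plasma membrane, stood at 8.09 FPKM in Col-ABA and 2.598 in Col+ABA, with 9.65 in bin2-1 and 12.8 in bzr1-D/bin2-1. Both were highest in the double mutant, where the authors' deposited table gives q = 0.00772 for AMT1;3 and 0.104 for NAXT1 against bin2-1. On the nitrate and ammonium list 4 genes rose and 7 fell with ABA of 22 tested in the authors' deposited table, at a median log2 ratio of -0.21. AMT1;2, another ammonium transporter, fell from 7.28 to 4.37 FPKM with ABA, while its bin2-1 ratio was 5.58.

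GDU3 and LHT1 bear on amino acid transport. GDU3, of a family of small membrane proteins whose overexpression makes plants secrete glutamine, stood at 55.4 FPKM in Col-ABA and 17.9 in Col+ABA, with 85.5 in bin2-1 and 117 in bzr1-D/bin2-1. LHT1, which takes up amino acids at the root, stood at 48.9 FPKM in Col-ABA and 22.8 in Col+ABA, with 60.6 in bin2-1 and 49.8 in bzr1-D/bin2-1. For GDU3 the values in the 2 mutants lie on the other side of Col-ABA from the ABA value, and the product of its mutant ratios was 1.90.

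Metal and phosphate transport was represented by 5 genes. NRAMP1, which takes up manganese and iron, stood at 44.2 FPKM in Col-ABA and 16.0 in Col+ABA, with 32.1 in bin2-1 and 47.5 in bzr1-D/bin2-1. HMA4, a pump that loads zinc into the xylem, stood at 45.3 FPKM in Col-ABA and 22.5 in Col+ABA, with 45.7 in bin2-1 and 35.8 in bzr1-D/bin2-1. PHO1, which loads phosphate into the xylem, stood at 99.97 FPKM in Col-ABA and 54.3 in Col+ABA, with 98.4 in bin2-1 and 141 in bzr1-D/bin2-1. Of these, NRAMP1 lay nearest to the edges of the window in both mutants, down and then up, at ratios of 0.682 and 1.42. For NRAMP1 the authors' deposited tables give q = 0.000677 in bin2-1 and 0.00192 with bzr1-D. For HMA4 and PHO1 they give q = 0.0159 and 0.00694 with bzr1-D, and 0.651 and 0.512 in bin2-1. IREG2, a vacuolar metal transporter, stood at 7.30 FPKM in Col-ABA and 2.93 in Col+ABA, with 5.42 in bin2-1 and 5.59 in bzr1-D/bin2-1. For IREG2 the authors' deposited tables give q = 0.00839 in bin2-1 and 0.966 with bzr1-D. AT3G25190, also named VTL5 and annotated as a vacuolar iron transporter, stood at 17.2 FPKM in Col-ABA and 5.60 in Col+ABA. VTL5 was among the genes closest to 1 in both mutants, at 18.3 FPKM in Col-ABA and 18.2 in bin2-1 in the bin2-1 table, and 19.0 in bin2-1 and 18.7 in bzr1-D/bin2-1.

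On the metal uptake list 3 genes rose and 9 fell with ABA of 27 tested in the authors' deposited table, at a median log2 ratio of -0.26. NAS1, which makes the metal chelator nicotianamine, fell from 25.2 to 6.37 FPKM and is outside the 110 at a bin2-1 ratio of 0.38. On the phosphate and sulfate list 4 rose and 8 fell of 22 tested, at a median of 0.07, and the phosphate transporter PHT1;1 fell from 64.2 to 16.2 FPKM but had a bzr1-D ratio of 0.59. The remaining transporters are the MATE carriers AT3G26590 and AT1G11670 and the major facilitator AT2G20780, which were 3.76-, 1.90- and 1.83-fold lower with ABA.

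Receptors, kinases and other signalling proteins were the largest named group, with 20 genes and a median log2 ABA ratio of -1.06. Of these, 19 were past q 0.05 with ABA in the authors' deposited table, beside 9.51% of all tested genes lower with ABA. Of the 20 genes, 4 passed in a mutant comparison, beside 58.5% of the genes tested in all of the authors' deposited tables. The rule chose these signalling genes by the same comparisons, so nothing is read from the counts. The kinase gene AT1G80870 stood at 5.08 FPKM in Col-ABA and 1.17 in Col+ABA, with 5.89 in bin2-1 and 7.36 in bzr1-D/bin2-1. AT2G37710, a receptor kinase with a lectin domain and the symbol RLK, stood at 10.2 FPKM in Col-ABA and 2.70 in Col+ABA, with 10.8 in bin2-1 and 12.5 in bzr1-D/bin2-1. PSY1R, named as a receptor of a sulfated growth peptide, stood at 8.95 FPKM in Col-ABA and 3.31 in Col+ABA, with 7.79 in bin2-1 and 7.58 in bzr1-D/bin2-1. RBK1, a kinase that binds ROP GTPases, stood at 11.1 FPKM in Col-ABA and 3.82 in Col+ABA, with 11.8 in bin2-1 and 14.2 in bzr1-D/bin2-1. These 4 genes had their lowest value with ABA, for which the rule chose them, and the first 2 and RBK1 their highest in the double mutant. For bzr1-D/bin2-1 against bin2-1 the authors' deposited table gives q = 0.260 for AT1G80870, 0.559 for AT2G37710 and 0.368 for RBK1.

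HSL1, a HAESA-like receptor kinase read here as AT1G28440, stood at 10.11 FPKM in Col-ABA and 5.51 in Col+ABA, with 15.6 in bin2-1 and 19.6 in bzr1-D/bin2-1. AT5G57710 is SMAX1, a repressor of karrikin responses, and stood at 13.1 FPKM in Col-ABA and 6.81 in Col+ABA, with 15.1 in bin2-1 and 18.5 in bzr1-D/bin2-1. HSL1 was thus higher in both mutants than in Col-ABA. For HSL1 the authors' deposited tables give q = 0.00036 for bin2-1 against Col-ABA and 0.166 for bzr1-D/bin2-1 against bin2-1. FAB1C, of a family of phosphoinositide kinases, was 2.49-fold lower with ABA, and PLL4, a phosphatase related to POLTERGEIST, 2.45-fold lower. The calmodulin-like gene CML41, the MLO family gene MLO10 and the kinase APK2A were 1.90-, 2.119- and 1.81-fold lower. The kinase gene AT5G58540 was 2.61-fold lower and the EF-hand calcium-binding gene AT1G29025 1.92-fold lower. None of the 29 genes on the list of receptor-like kinases of growth and immunity is among the 110. Only 17 of the 29 reach 5 FPKM, and the 110 come from 15705 genes at that level, so nothing is read from this.

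Of 5 cell wall genes, RGXT2, which adds xylose to the pectin rhamnogalacturonan II, had the lowest ratio, at 33.7 FPKM in Col-ABA and 10.4 in Col+ABA. In bin2-1 it stood at 36.0 FPKM beside 35.9 in Col-ABA, and in bzr1-D/bin2-1 at 41.9. BXL2, a xylosidase of the wall, stood at 9.44 FPKM in Col-ABA and 3.44 in Col+ABA, with 9.88 in bin2-1 and 9.71 in bzr1-D/bin2-1. XTH8, which cuts and rejoins xyloglucan, stood at 45.1 FPKM in Col-ABA and 23.5 in Col+ABA, with 32.2 in bin2-1 and 44.4 in bzr1-D/bin2-1. XTH8 is the only one of the 110 on the list of expansins and xyloglucan enzymes, where 4 genes rose and 7 fell with ABA of 27 tested in the authors' deposited table. The bin2-1 ratio of XTH8 was 0.67, at the edge of the window, where 12 genes of that list rose and 13 fell in bin2-1 of 28 tested, beside 25.4% and 25.6% of all tested genes in the authors' deposited table. AT5G04960, an invertase or pectin methylesterase inhibitor by annotation, stood at 31.0 FPKM in Col-ABA and 16.4 in Col+ABA, with 44.99 in bin2-1 and 41.5 in bzr1-D/bin2-1.

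Cytochrome P450 and glycosyltransferase genes numbered 7, the P450 genes CYP71B37, CYP72A7 and CYP705A20 and 4 glycosyltransferases, at log2 ABA ratios from -1.59 to -0.96. CYP71B37 stood at 17.96 FPKM in Col-ABA and 7.94 in Col+ABA, and had nearly the same value in the bin2-1 table, at 19.1 in Col-ABA and 19.2 in bin2-1. CYP705A20 stood at 10.2 FPKM in Col-ABA and 5.21 in Col+ABA, and was higher in the mutants, with 16.0 in bin2-1 and 20.9 in bzr1-D/bin2-1. Of the glycosyltransferases, AT4G15270 had the lowest ratio, at 5.07 FPKM in Col-ABA and 1.61 in Col+ABA, and AT1G50580 and AT1G52420 were 2.14- and 2.03-fold lower with ABA. The 7 lectin, redox and defence-linked genes had a median log2 ABA ratio of -1.28. GRXS13, a glutaredoxin, stood at 64.2 FPKM in Col-ABA and 15.6 in Col+ABA, with 46.3 in bin2-1 and 43.1 in bzr1-D/bin2-1. The jacalin lectin gene AT1G33790 stood at 36.3 FPKM in Col-ABA and 10.7 in Col+ABA, with 25.8 in bin2-1 and 23.4 in bzr1-D/bin2-1. GRXS13 and AT1G33790 were therefore lower in all 3 other groups than in Col-ABA, least so in bin2-1.

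Auxin, ethylene and growth genes were few. They are SAUR36 and AT1G19840, both of the SAUR family of auxin-responsive genes, LNG1, a gene that promotes cell elongation in leaves, and AT1G12010, an oxidase of ethylene synthesis. AT1G12010 had the lowest ABA ratio of these, at 30.4 FPKM in Col-ABA and 10.2 in Col+ABA, with 23.4 in bin2-1 and 21.3 in bzr1-D/bin2-1. LNG1 stood at 24.8 FPKM in Col-ABA and 13.1 in Col+ABA, with 28.5 in bin2-1 and 39.9 in bzr1-D/bin2-1. SAUR36 stood at 8.39 FPKM in Col-ABA and 4.42 in Col+ABA, with 8.998 in bin2-1 and 8.70 in bzr1-D/bin2-1. Of the 24 lists drawn up for hormones, nutrients, walls and cell types, 17 hold none of the 110, among them ABA receptors, auxin, cytokinin, gibberellin and brassinosteroid genes, aquaporins, root hair growth, the endodermal barrier and the cell cycle. These 17 lists hold from 8 to 39 genes at 5 FPKM each, and the 110 come from 15705 such genes. Nothing is therefore read from a list that holds none.

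**Figure D4:**
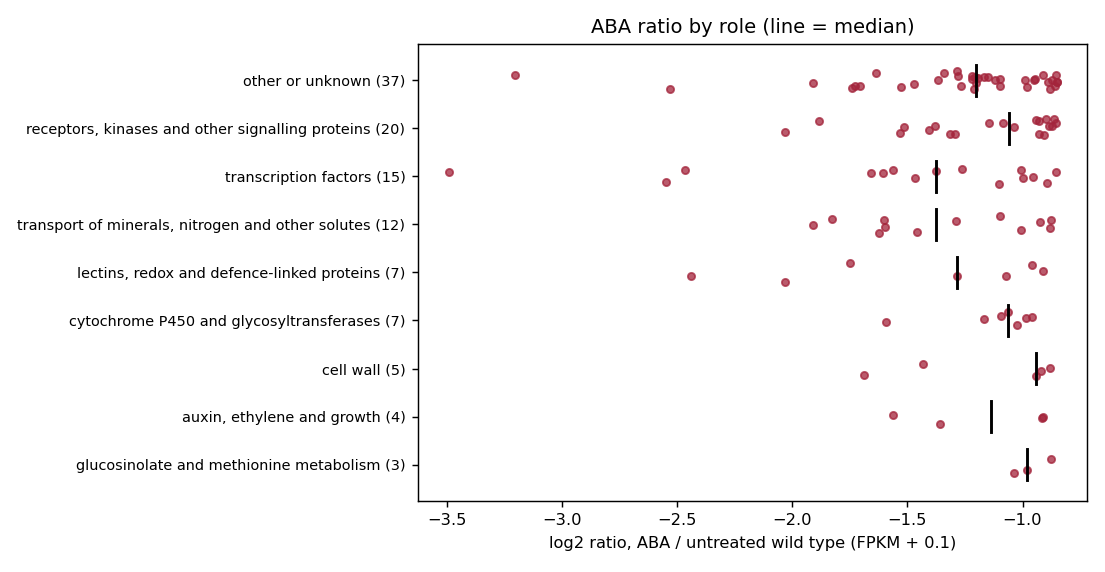
The log2 ratio of ABA against untreated wild type (horizontal axis, FPKM with 0.1 added) of each of the 110 genes, by role, with the number of genes in brackets and the median as a line. The medians run from -0.94 for cell wall genes to -1.38 for transcription factors, and single genes reach -3.49 and -3.21.

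The remaining 37 genes had other or no known roles, among them the genes with the highest levels. AT1G04040, annotated as an acid phosphatase, had the highest level of the 110, at 517 FPKM in Col-ABA and 229.7 in Col+ABA, with 421 in bin2-1 and 347 in bzr1-D/bin2-1. AT4G15390, annotated as an acyltransferase, stood at 329 FPKM in Col-ABA and 144 in Col+ABA, and at 351 and 346 in the bin2-1 table and 361 and 353 in the bzr1-D table. AT4G15390 thus had mutant ratios of 0.986 and 0.978 and a 2.29-fold lower value with ABA. HXK3, a hexokinase, stood at 31.4 FPKM in Col-ABA and 10.03 in Col+ABA, with 28.2 in bin2-1 and 27.6 in bzr1-D/bin2-1. ACR3, an ACT domain protein, was 2.53-fold lower with ABA. The F-box gene AT2G36090, which overlaps CASP1 on the opposite strand, stood at 25.4 FPKM in Col-ABA and 7.54 in Col+ABA, with 30.6 in bin2-1 and 44.5 in bzr1-D/bin2-1. AT1G13480, annotated only by a domain of unknown function, was 2.77-fold lower with ABA. The inositol monophosphatase gene SAL2 was 2.22-fold lower, and the RING gene AT4G24015 2.14-fold lower.

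Levels in Col-ABA ran from 2.37 to 517 FPKM with a median of 12.6, against a median of 17.7 for the other genes lowered by ABA. At least 100 FPKM were reached by 7 of the 110 genes, 42 were under 10 FPKM and 7 under 5. The product of the 2 mutant ratios, which places the double mutant against Col-ABA across 2 separately scaled tables, ran from 0.499 to 2.01 with a median of 0.916. AT4G10550, a subtilase, had the lowest product, followed by ERF105, the LIM domain gene AT4G36860 and the trypsin family gene AT5G45030 at 0.511, 0.521 and 0.525, and AT1G71015 the highest, followed by AT1G10400, GDU3 and CYP705A20 at 1.94, 1.90 and 1.83. The window on each ratio allows such products, so a gene can meet the rule and still stand well away from Col-ABA in the double mutant.

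By the words of their annotated products, 13 of the 110 genes, or 11.8%, are transcription factors, against 5.24% of the other lowered genes and 6.26% of all genes at 5 FPKM. Protein kinases make up 6.36% of the 110, against 4.16% and 2.99%, and transporters and channels 5.45%, against 3.44% and 2.90%. The cytochrome P450 share was 2.73%, against 1.99% and 0.686%. Class III peroxidases, which use hydrogen peroxide in the cell wall, number 13 among the other lowered genes and 0 among the 110, which is 2.35% of the others, and make up 0.410% of all genes at 5 FPKM. Ribosome and translation products, at 2.55% of all genes at 5 FPKM, are absent from both sets of lowered genes, as are histones and chromatin proteins. Hypothetical or unknown products make up 10.9% of the 110, against 15.7% of the other lowered genes and 9.92% of all genes at 5 FPKM. These shares are counts by product word, and none was tested against another.

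Of all 110 genes, the 6 with both mutant ratios closest to 1 were ORA59, VTL5, AT4G15390, BXL2, AT5G38550 and AT1G65985. AT5G38550, annotated as a mannose-binding lectin, stood at 6.30 FPKM in Col-ABA and 2.53 in Col+ABA, with 7.18 in bin2-1 and 7.19 in bzr1-D/bin2-1. AT1G65985, of a family of unknown function, stood at 7.96 FPKM in Col-ABA and 4.07 in Col+ABA, with 8.40 in bin2-1 and 9.37 in bzr1-D/bin2-1. With ABA these 6 were from 1.93-fold lower, for AT1G65985, to 5.85-fold lower, for ORA59.

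Just inside the limit on the ABA ratio were AT2G42300, AT2G27360, AT1G11185 and AT5G43910, at 1.809-, 1.806-, 1.805- and 1.803-fold lower. Just outside it, with both mutant ratios in the window, were the phytochrome gene PHYA, the homeobox gene HB-8, AT2G38380 and AT5G35732, at 1.797-, 1.793-, 1.791- and 1.790-fold lower.

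Of the 110 genes 107 are annotated as protein coding, 1 as a transcribed pseudogene, 1 as a lncRNA and 1 as another non-coding RNA. Chromosomes 1 to 5 hold 37, 12, 18, 14 and 29 of them, and chromosome 1 holds 33.6% of the 110 against 24.4% of the other lowered genes and 25.8% of all genes at 5 FPKM. The median transcript length was 1786 bases, against 1480 for the other lowered genes and 1697 for all genes at 5 FPKM. The median number of exons was 3, against 2.5 and 5, and 25.2% had a single exon, against 30.2% and 14.7%. Lying close together were MAM1 and IMS2, next to each other, and GDU3 and AT5G57710, 3 genes apart.

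An overlapping gene was annotated for 31 of the 110, or 28.2%, against 31.5% of all genes at 5 FPKM, and no label or header says whether reads were counted by strand. Where the partner lies on the opposite strand, reads of the pair cannot be told apart without strand. Such partners include EOL2 for AT5G58540, at 8.44 FPKM in Col-ABA and 4.76 in Col+ABA. AIL6, the partner of RBK1, stood at 35.2 and 40.6 FPKM, and CCR2, the partner of NRAMP1, at 8.82 and 22.7. FAB1C and AT1G71015 overlap each other, as do LNG1 and AT5G15581, so these 4 are not independent entries. AT3G20900, at 10.6 FPKM in Col-ABA and 1.06 in Col+ABA, is the second-lowest by ratio, and its partner AT3G20898 stood at 1.81 and 1.33 FPKM. The authors' deposited table gives q = 0.535 for AT3G20900 with ABA. AT1G11055, annotated as a pseudogene, stood at 20.5 FPKM in Col-ABA and 3.69 in Col+ABA, and q was 0.667 in the authors' deposited table. AT3G10120 also overlaps a gene on the other strand, and stood at 11.2 FPKM in Col-ABA and 1.85 in Col+ABA with q = 0.000385 in the authors' deposited table. For 5 of the 110, a transcript of another gene matched at 90% identity over 80% of the length, and 4 of these matches are to the overlapping partner.

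The window from 250 bases before to 50 bases after each annotated start was searched on both strands for 12 short sequences. TATAAA was in 70.9% of the 110 windows, against 60.6% for the other genes lowered by ABA, 52.4% for all genes at 5 FPKM and 50.04% for all 32809 promoters. ACGTG, the core of the ABA-responsive element, was in 19.1%, against 27.2%, 28.9% and 25.4%. The G-box CACGTG, which contains it, was in 1.82%, against 4.22%, 9.31% and 6.89%. CCGAC, the core bound by DREB factors, was in 6.36%, against 11.4%, 16.7% and 15.6%. TGGGCC, a form of the site II element of growth and ribosomal genes, was in 6.36%, against 5.32%, 19.5% and 13.96%.

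The brassinosteroid response element cores were found in similar shares, CGTGTG in 6.36% against 6.16% of all promoters and CGTGCG in 1.82% against 1.81%. The E-box CANNTG was in 61.8% against 62.5%, and TTGAC, the core of the W-box bound by WRKY factors, in 50.9% against 50.02%. TGTCTC, the auxin response element, was in 14.5% against 14.04%, and AACCCTA, from the telo box, in 1.82% against 9.01%. The 2 G-boxes are in ORA59 and in LSH6, where one begins 44 bases before the start, and the 2 GCCGCC boxes are in ORA59 and the non-coding AT1G11185. MYB28 has ACGTG 200 bases and TATAAA 192 bases before its start. A match describes these letters only, and no set of promoters was tested against another.

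**Figure D5:**
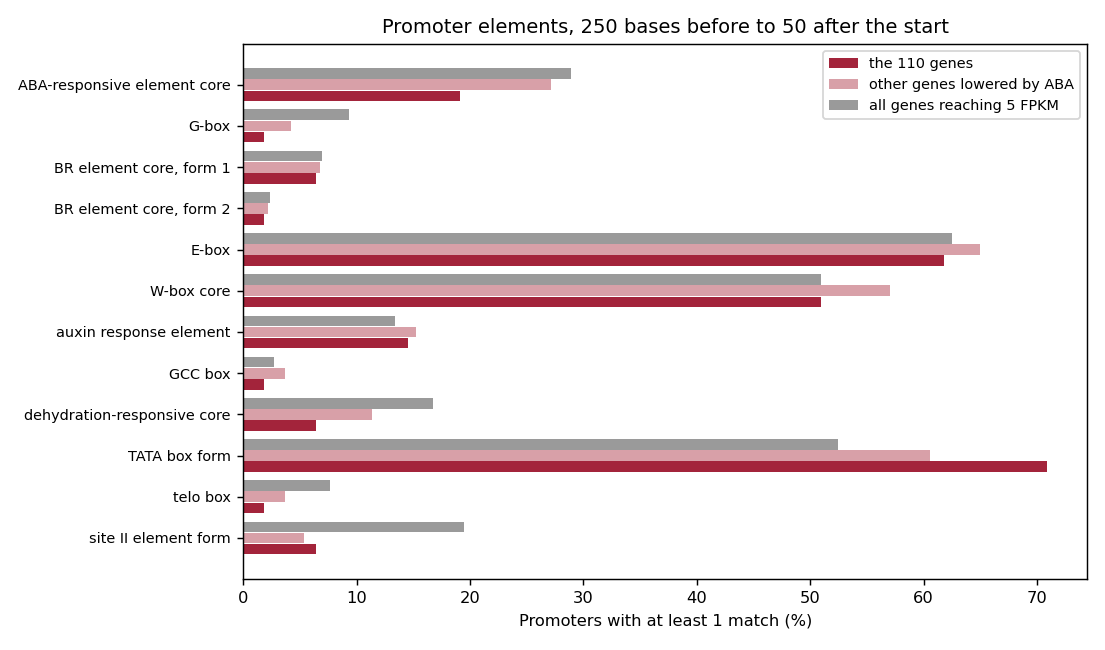
The share of promoters with at least 1 match (horizontal axis, %) for 12 elements in the 110 genes, the other genes lowered by ABA and all genes reaching 5 FPKM. The TATA box form is at 70.9% in the 110 genes and 52.4% in all genes at 5 FPKM, and the site II form at 6.36% and 19.5%.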

How the data were processed

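RNA of 8 root-tip libraries in 4 groups was sequenced on a HiSeq2000 from TruSeq libraries, per the labels' protocols. Per the submitters' processing notes the authors used TopHat, Cufflinks and TAIR10. The tools' versions and options were not given in the sources used here. The 3 tables deposited by the authors give 1 value per group, read as FPKM because Cufflinks is named and the values sum to no fixed total. The p-value and q-value columns are those the authors deposited, from a test not named in the sources used here. No per-library values were used, so no replicate error or depth can be given. Untreated wild type was 1.07 times higher in the bin2-1 table than in the ABA table and bin2-1 1.04 times higher in the bzr1-D table than in the bin2-1 table, so each ratio was taken within a table. Where a group is in 2 tables, the text names the table or, for wild type beside ABA, uses the ABA table, and for bin2-1 the bin2-1 table.

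Ratios carry a pseudocount of 0.1 FPKM and understate the change of low genes. Genes with a deposited p-value below 1 count as tested. Names, overlaps and sequences come from the RefSeq annotation and sequence of TAIR10.1, where 32810 of the 33557 identifiers are found. The tables carry no coordinates, genes were matched by locus tag, and the coordinates printed are those of TAIR10.1. Python 3.11.15, pandas 2.3.3, numpy 2.4.6 and matplotlib 3.10.9 were used, with BLAST 2.17.0 for near-identical transcripts. The rule was tested on simulated tables.

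The genes, the 24 gene lists, the 12 promoter sequences and the rules were chosen with earlier results of these data known. Roles, the glucosinolate and ERF subfamily lists, and the promoters shown were chosen after the values were seen. From the list of signalling peptides, 5 symbols that matched other genes or none were removed after the tables were read. Named are the 12 lowest ABA ratios, the 8 highest Col-ABA levels, 4 genes on either side of the limit, up to 4 genes of each list and product class, the 6 with mutant ratios closest to 1, and the 4 lowest and 4 highest products of the mutant ratios. Others, such as IREG2, LHT1, HSL1, AT5G57710, LNG1 and the list genes outside the 110, were named for their roles after their values were seen. Alternatives were other pseudocounts, level minimums, ratio limits, centring, use of the q-values, a promoter window of 250 bases before the start, and leaving out overlapping genes or near-identical copies. One promoter sequence is not reported here.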

Additional observations from a re-analysis of the deposited data

How the results depend on the processing

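The number of genes that meet the rule depends on its limits. It was 172 with a minimum of 1 FPKM, 281 with an ABA ratio of at most 1/1.5, 71 with at most 1/2, 48 with a mutant window of 1.3-fold, 212 with a window of 2-fold, and 58 where q had to be under 0.05 with ABA and not in either mutant comparison. It stayed within 1.5 times of 110 under the other alternatives, from 77 with a minimum of 10 FPKM to 116 with centred ratios. With a pseudocount of 1 FPKM it was 95, of which 87 are among the 110. The genes past q 0.05 with ABA in the authors' deposited table were 265, 67, 45 and 195 at ABA limits of 1/1.5 and 1/2 and windows of 1.3- and 2-fold. These counts stand beside 9.51% of all tested genes lower with ABA. At q under 0.01, 100 of the 110 passed with ABA, beside 6.56% lower. At that limit 19 passed in bin2-1, beside 20.2% lower and 19.9% higher, and 7 with bzr1-D, beside 8.83% and 8.36%. The rule used the same comparisons, so these counts are a description only. In the 250 bases before the start alone, the W-box core was in 40.9% and the telo box form in 0% of the 110. Leaving out the overlapping genes or those with a near-identical copy, both chosen after seeing the data, left 79 and 105 genes. Of the 65 named genes, 4 moved by more than 0.5 in log2 with a pseudocount of 1 FPKM and none changed sign under any pseudocount or with centring. No paired analysis was possible because each table holds 1 value per group, and for the same reason no library could be left out. The precision at low FPKM cannot be read from these values.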
